A study of Rattus norvegicus with 10 samples.

Results

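The net effect of bending on the tibial shaft was described as the difference between the ratio of loaded to control bone and the ratio of squeezed to control bone. It was examined across the bright genes, those whose signal probability was at least 0.5 in all 20 channels of the 10 arrays. These were 2380 of the 4803 genes on the arrays, and all 2380 were among the 4707 genes that entered the test. The signal probability, not the ratio, chose them. Of the genes outside this rule, 185 carried signal in 19 of the 20 channels, and 178 of the bright genes had a lowest probability under 0.6.

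The animals were female Wistar rats of 12 weeks, a common outbred strain. In the LOAD group (n = 5) the right tibia received a single session of 4-point bending of 300 cycles at 2 Hz at a peak magnitude setting of 60 N, while in the SHAM group (n = 5) the right tibia was squeezed between opposed pads so that no bending arose. The unloaded left tibia of each rat served as the contralateral control in both groups, and bone was taken 6 hours after the session. According to the methods, the measured force was above the setting. RNA came from the shaft after its ends, periosteum and marrow had been removed, and the right and left tibia were hybridized on the same array with different dyes. The SHAM ratio thus held what handling and pressure do to the bone, and LOAD minus SHAM addressed what bending added.

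Cortical bone is populated mainly by osteocytes, cells embedded in the mineralized matrix that sense strain and fluid flow and signal to the osteoblasts and osteoclasts at the surfaces. They secrete matrix phosphoproteins, among them MEPE, a member of the SIBLING family that also holds osteopontin and bone sialoprotein. Bending of long bones is known to start bone formation. A dissected shaft also holds vessels with their blood cells, and muscle attaches to its surface.

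In each group the treated bone carried Cy3 on 3 of the arrays and Cy5 on the other 2, so a constant dye effect cancelled in the difference. It no longer cancels where this balance is broken, as without LOAD 5, without both arrays numbered 4 or with the dyes of LOAD 2 exchanged. The balance is also broken when the controls of the arrays numbered 4 are exchanged, as described below. Treated and control bone then share a dye in those ratios. For SHAM 1 a single label field named LOAD while the title and the file header named SHAM, and it was kept as SHAM. The correlation of the ratios over 2376 bright genes with 10 values was -0.56 between LOAD 2 and LOAD 5, although both had the treated bone in Cy5. It was -0.73 between SHAM 2, with the treated bone in Cy5, and SHAM 5, with it in Cy3. Values above 0 were found for both kinds of pair. They were 0.57 between SHAM 2 and SHAM 4, both in Cy5, and 0.46 between LOAD 2 in Cy5 and LOAD 4 in Cy3. The labels gave the dyes of every array and their directions were kept, but between arrays that correlated below 0 the direction is not settled by the data. With the dyes of LOAD 2 exchanged the 8 named genes described below kept their direction, with Mepe at 0.61 and Ckm at -1.51. These genes were selected by p on the same arrays, so this is not independent evidence. The numbers 1 to 5 do not pair rats of the LOAD and SHAM groups. Defining transcripts of bone (Spp1, Ibsp, Sparc and Mepe) carried signal in all 20 channels, as did Ckm, Car3 and Eno3 of skeletal muscle, Alas2 and Slc4a1 of red cells and Cd53 of leukocytes. No cartilage gene was bright.

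The sample numbers in the file headers set the arrays numbered 4 apart. On the other 8 arrays the treated and the control tibia had successive numbers, such as 15 and 16. On LOAD 4 the numbers were 3 and 26, and on SHAM 4 they were 25 and 4. Read as on the other arrays, the numbers would pair each treated tibia with the control of the rat on the other array. Whether the numbers or the labels hold was not tested. LOAD 4 also held 166 spots with a confidence under 0.11, against 32 to 68 on the other arrays. Its share of spots with signal in both channels, 52.4%, was the lowest. D88586, an accession without a name, had log2 ratios of 2.95 on LOAD 4 and -2.23 on SHAM 4, against values from -0.52 to 0.21 on the other arrays. Cst8, a member of the cystatin family of protease inhibitors, had 1.33 and -1.25 on these arrays, and its difference of 0.64 (standard error 0.32) became -0.14 when the controls were exchanged to follow the numbers. D88586, D50568 and Cst8 were chosen after their values were seen. Bright genes with opposite ratios beyond 0.5 on both arrays of one number were 104 for the arrays numbered 4, 99 for those numbered 2, 50 for those numbered 5, 4 for those numbered 1 and 3 for those numbered 3. Results below are given as hybridized, and the genes at an unadjusted p under 0.05 and the gene lists also with the arrays numbered 4 left out or with their controls exchanged where that moved them. The exchange compares channels of the same dye across arrays and was made after Aquantile normalization. It was chosen after seeing the data, as was the omission of both arrays. After the exchange D88586 was at -0.22 on LOAD 4 and 0.95 on SHAM 4, D50568, a further accession without a name, went from 2.17 and -1.13 to -0.23 and 1.27, and Cst8 was at -0.60 and 0.68. The correlation of the pair was -0.61 after the exchange, and 139 bright genes had opposite ratios beyond 0.5.

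**Figure D1:**
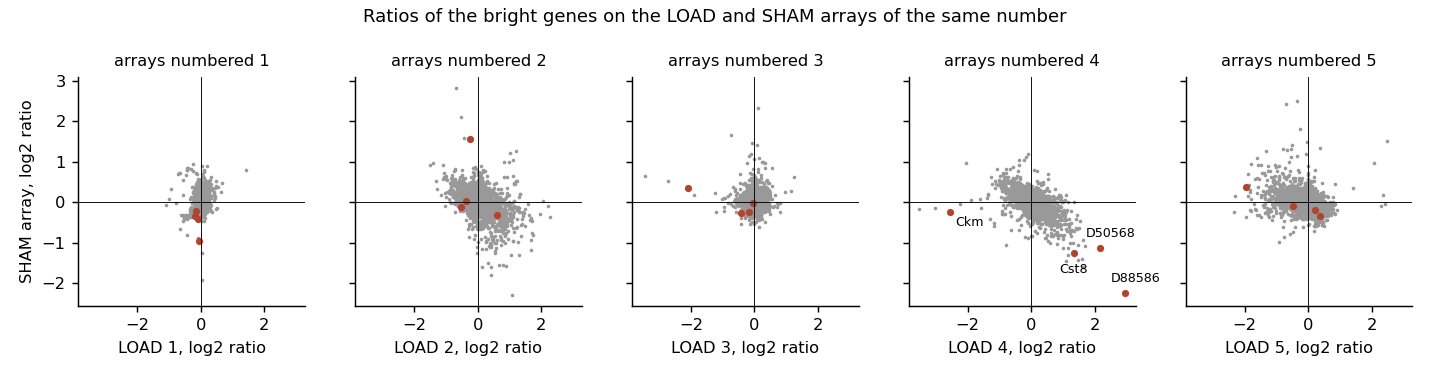
Log2 treated/control ratios of the 2380 bright genes on the LOAD array (horizontal axis) and the SHAM array (vertical axis) of the same replicate number, 1 grey point per gene, with D88586, D50568, Cst8 and Ckm in red. On the arrays numbered 4 the points slope downwards (correlation -0.60), with D88586 at 2.95 and -2.23. The treated bone carried Cy3 on LOAD 4 and Cy5 on SHAM 4.

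The distribution of LOAD minus SHAM over the bright genes was narrow and centred near 0. Its median was -0.0055 on the log2 scale, 1149 genes had a higher ratio in LOAD and 1231 a lower one, and 5% of the genes lay below -0.24 and 5% above 0.23. Only 5 bright genes differed by more than 1, which is 2-fold, and 23 by more than 0.5. Ckm, Fgb, Maoa and V01224 were lower, and D88586 was the one that was higher. With the controls of the arrays numbered 4 exchanged, D88586 turned from 1.06 (standard error 0.63) to -0.21, and V01224 moved from -1.83 (standard error 0.68) to -0.49. The 95% interval of the difference lay within 2-fold in either direction for 2261 bright genes, and within 1.5-fold for 1858 (78.1%). The median standard error was 0.14 in the bright genes and 0.16 in the 2327 dimmer genes tested.

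At a false discovery rate of 20% limma called 0 of 4707 genes (0%, lowest adjusted p = 0.999). Before adjustment, p was under 0.05 for 23 bright genes, which is 0.966% of them, against 70 of all 4707 genes (1.49%). They comprised 7 with a higher ratio in LOAD, beside 0.574% of all genes, and 16 with a lower one, beside 0.914%. After median centring in place of loess, which moved the median of all bright genes to -0.089, the 19 genes below this limit held 0 with a higher ratio. In the dimmer genes the share was 2.02%. The LOAD and SHAM ratios did not overlap in 3 bright genes, all higher in LOAD, which is 0.126% of those with 10 values beside 0.157% of all such genes. The exact 2-sided permutation test of 5 against 5 arrays gave its smallest possible value, p = 0.00794, for these 3, and the adjusted p over 4472 genes was 1. The share at an unadjusted p under 0.05 was thus lower among the bright genes than over the whole array.

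**Figure D2:**
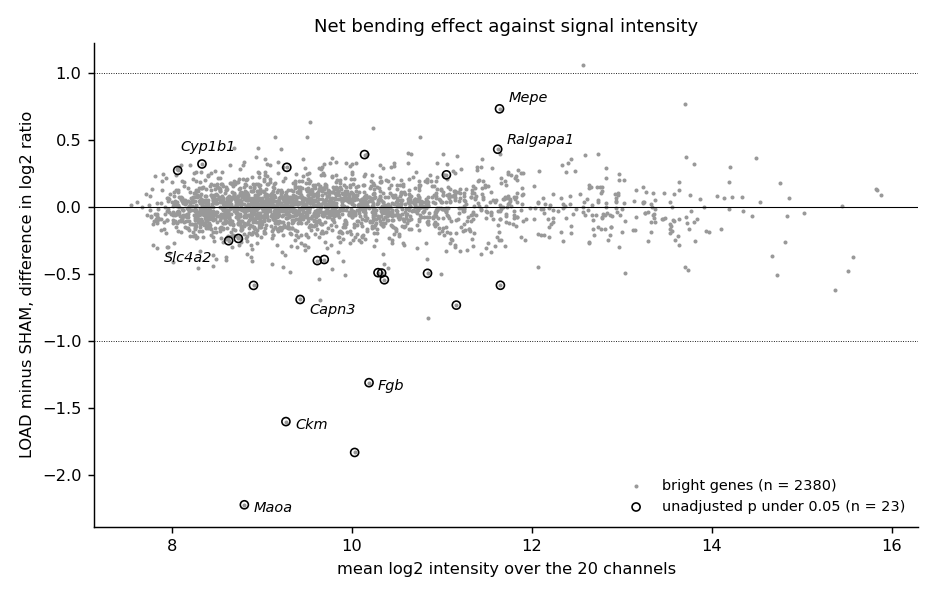
Difference in log2 ratio, LOAD minus SHAM, of each of the 2380 bright genes (grey) against its mean log2 intensity over the 20 channels; rings mark the 23 genes at an unadjusted p under 0.05 in limma and dotted lines mark 2-fold. The named genes with the largest differences were Maoa, Ckm and Fgb below 0 and Mepe above 0.

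Among the bright genes with a name, 564 in number, 8 (1.42%, beside 1.49% of all genes tested) reached p under 0.05 before adjustment: Mepe, Ralgapa1 and Cyp1b1 with a higher ratio in LOAD than in SHAM, and Ckm, Capn3, Maoa, Fgb and Slc4a2 with a lower one. Mepe, Ralgapa1, Ckm, Fgb and Maoa had been picked by the study on these same arrays, so that their direction is not independent evidence. Mepe, Fgb and Maoa also had a name only through the study's table of these picked genes. The share of 1.42% was thus itself selected, and among bright genes without a name it was 0.826%. Within each of the 4 image batches, which hold arrays of both groups, the difference kept its sign for 7 of the 8 genes, and for Cyp1b1 it was -0.0048 in the second batch. All 8 were selected on the differences of these same arrays, so a kept sign was likely beforehand. Mepe differed by 0.41, 0.62, 1.82 and 0.40 in the batches of numbers 1 and 2, 3, 4 and 5, and Ckm by -0.45, -2.45, -2.33 and -2.33. The 250 bases before the transcription starts of Ckm and Capn3, a pair of muscle genes, and of Mepe are shown so that their upstream sequence can be compared. Sequences are RefSeq's (build GRCr8), 5′ to 3′ on the strand of the gene, with each match to CANNTG, the E-box bound by basic helix-loop-helix factors, in capitals. The motif reads the same on both strands, and CAGCTG is a case of it.
Ckm, chr1:88189211-88189460, plus strand: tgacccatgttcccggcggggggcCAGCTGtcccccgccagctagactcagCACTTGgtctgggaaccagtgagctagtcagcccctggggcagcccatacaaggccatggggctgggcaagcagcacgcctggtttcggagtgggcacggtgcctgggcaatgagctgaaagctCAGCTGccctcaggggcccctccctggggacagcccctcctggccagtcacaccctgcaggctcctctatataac
Capn3, chr3:127861340-127861589, plus strand: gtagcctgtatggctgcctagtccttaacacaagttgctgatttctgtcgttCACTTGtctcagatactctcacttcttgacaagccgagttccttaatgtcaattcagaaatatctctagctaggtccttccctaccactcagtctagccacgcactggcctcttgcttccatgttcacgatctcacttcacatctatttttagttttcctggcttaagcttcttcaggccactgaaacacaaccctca
Mepe, chr14:5736859-5737108, minus strand: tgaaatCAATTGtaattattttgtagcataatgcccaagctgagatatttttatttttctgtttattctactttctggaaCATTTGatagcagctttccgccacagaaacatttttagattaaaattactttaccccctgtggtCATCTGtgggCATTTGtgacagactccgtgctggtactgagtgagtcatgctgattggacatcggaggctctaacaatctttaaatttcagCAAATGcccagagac
CANNTG was found 3 times before Ckm, 1 time before Capn3 and 5 times before Mepe. Of 33469 promoter windows of the same length, 65.5% held it at least 1 time, 11.5% at least 3 times and 0.923% at least 5 times. The form CAGCTG was found 2 times before Ckm and is in 12% of all windows. These matches are letters in a window and not measured sites.

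Mepe, the matrix phosphoglycoprotein of osteocytes that restrains mineralization, had log2 ratios of 1.43, 0.30, 1.24, 1.00 and 0.34 on LOAD 1 to 5, and of 0.81, 0.11, 0.62, -0.82 and -0.061 on SHAM 1 to 5. All LOAD values were above 0, but SHAM 1 and SHAM 3 lay within their range, so the groups overlapped. The LOAD mean was 0.86 ± 0.52 and the SHAM mean 0.13 ± 0.64 (SD, n = 5). The difference was 0.73 (standard error 0.32, 95% interval 0.042 to 1.42), a 1.66-fold higher ratio (exact 2-sided permutation p = 0.0873). It was 0.46 without the arrays numbered 4 and 0.31 with their controls exchanged.

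Ralgapa1 encodes the catalytic subunit of a GTPase-activating complex for Ral proteins. Its ratios were 0.67, 0.39, 0.57, 0.70 and 0.19 on LOAD 1 to 5, against 0.48, -0.025, 0.40, -0.56 and 0.065 on SHAM 1 to 5. Every LOAD array was above 0, and SHAM 1 and SHAM 3 lay within their range, as for Mepe. The difference was 0.43 (standard error 0.19, 95% interval 0.016 to 0.84), with an exact permutation p = 0.0635, and it was 0.22 without the arrays numbered 4 and 0.047 with their controls exchanged. For Cyp1b1, a cytochrome P450 that oxidizes steroids and aryl hydrocarbons, the ratios were 0.20, -0.10, 0.29, 0.51 and 0.40 on LOAD 1 to 5, against -0.13, -0.13, 0.29, -0.037 and -0.29 on SHAM 1 to 5. SHAM 3 lay within the LOAD range, and LOAD 2 below SHAM 4. The difference was 0.32 (standard error 0.14, 95% interval 0.0075 to 0.63) and gave an exact permutation p = 0.0714. It was 0.26 without the arrays numbered 4 and 0.50 with their controls exchanged.

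Slc4a2, the anion exchanger through which osteoclasts take up chloride during acid secretion, had the lowest exact p of the 8 genes. Its ratios were -0.014, -0.16, -0.11, -0.29 and -0.31 on LOAD 1 to 5, and -0.095, 0.13, 0.13, 0.16 and 0.060 on SHAM 1 to 5. All LOAD values were below 0 and 4 of 5 SHAM values above it, and SHAM 1 alone fell among the LOAD values. The difference was -0.25 (standard error 0.10, 95% interval -0.47 to -0.034), with an exact 2-sided permutation p = 0.0159 and an adjusted p of 1 over the 4472 genes, and it was -0.20 without the arrays numbered 4 and -0.19 with their controls exchanged. Of the 3 bright osteoclast genes, Acp5, the tartrate-resistant acid phosphatase, differed by -0.43 (standard error 0.31) and Car2, the carbonic anhydrase that supplies protons, by 0.40 (standard error 0.40). The median of the 3 was -0.25, and -0.037 with those controls exchanged.

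**Figure D3:**
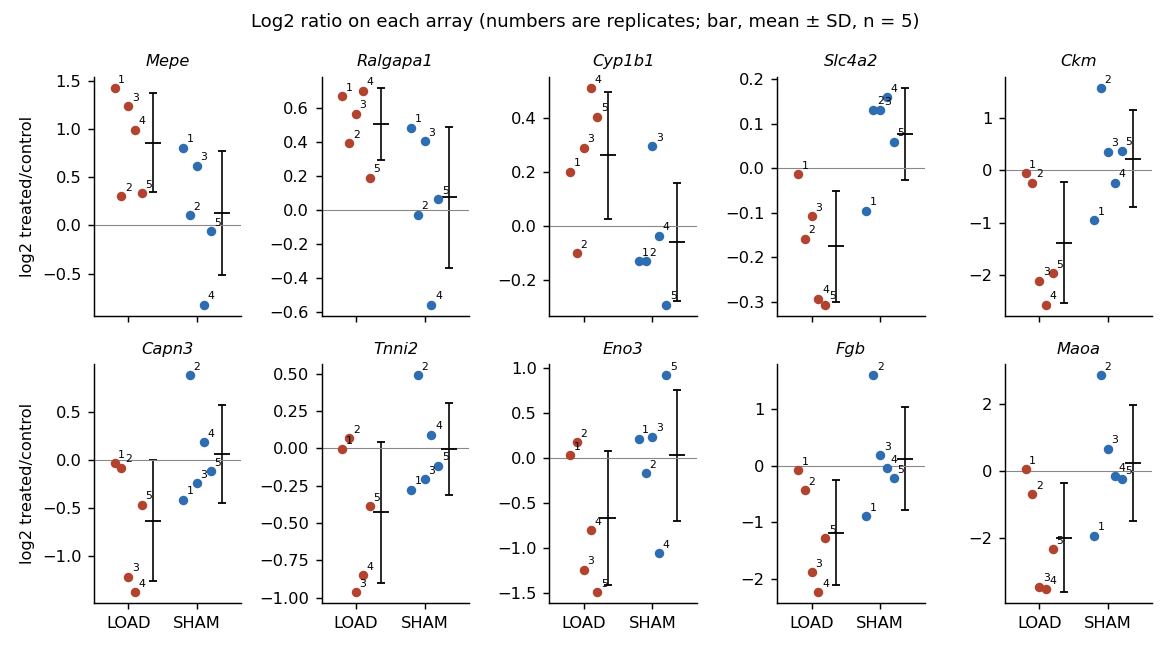
Log2 treated/control ratio of 10 genes on each of the 5 LOAD (red) and 5 SHAM (blue) arrays, numbered by replicate, each panel with its own vertical axis; the bar beside each group is the mean ± SD. Mepe ranged from 0.30 to 1.43 in LOAD and Ckm from -2.56 to -0.053, and the groups overlapped in all 10 panels.

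Bright skeletal muscle transcripts had lower ratios in LOAD as a list. Of 27 muscle genes on the arrays 14 were bright, and 13 of these had a lower ratio in LOAD and 1 a higher one. Their median was -0.24, against -0.0055 over all bright genes and -0.0067 over all genes tested, and 2 of them, Ckm and Capn3, had an unadjusted p under 0.05. The 13 dimmer muscle genes had a median of -0.050. The list was fixed with earlier results of these arrays known. Its array medians were -0.041, -0.083, -0.25, -0.73 and -0.11 in LOAD, and -0.14, 0.28, -0.088, 0.053 and -0.13 in SHAM, so that LOAD 4 was lowest and SHAM 2 highest, while LOAD 1, LOAD 2 and LOAD 5 lay within the SHAM range. Without normalization, which moved the median of all bright genes to 0.14, 11 of 14 were lower with a median of -0.098.

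Ckm, the muscle creatine kinase that regenerates ATP during contraction, had ratios of -0.053, -0.23, -2.10, -2.56 and -1.96 on LOAD 1 to 5, and of -0.95, 1.57, 0.36, -0.23 and 0.37 on SHAM 1 to 5. LOAD 3, LOAD 4 and LOAD 5 were far below all other arrays, and SHAM 1 lay below LOAD 1 and LOAD 2. The difference was -1.60 (standard error 0.55, 95% interval -2.81 to -0.40), a 3.04-fold lower ratio (exact 2-sided permutation p = 0.0556). Capn3, the calpain of muscle sarcomeres, had ratios of -0.030, -0.077, -1.21, -1.37 and -0.46 on LOAD 1 to 5, and of -0.41, 0.88, -0.24, 0.19 and -0.12 on SHAM 1 to 5, with a difference of -0.69 (standard error 0.31, 95% interval -1.37 to -0.014) and an exact p = 0.119. Again LOAD 3 and LOAD 4 were lowest and SHAM 2 highest.

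Tnni2, the inhibitory troponin of fast fibers, differed by -0.42 (standard error 0.22, 95% interval -0.91 to 0.064), and Tnni1, that of slow fibers, by -0.29 (standard error 0.19). Eno3, the enolase of muscle, had ratios of 0.034, 0.18, -1.24, -0.80 and -1.49 on LOAD 1 to 5, and of 0.21, -0.17, 0.24, -1.06 and 0.92 on SHAM 1 to 5, and differed by -0.69 (standard error 0.39, 95% interval -1.55 to 0.16). SHAM 4 was low for Eno3, unlike for Ckm. Among the other members Car3, a carbonic anhydrase of slow muscle, differed by -0.20 (standard error 0.16), the sodium channel Scn4a by -0.29 (standard error 0.32) and Cacng1, a calcium channel subunit, by -0.29 (standard error 0.23). Chrnb1, a subunit of the acetylcholine receptor at the motor endplate, was the one member with a higher ratio, at 0.078 (standard error 0.15). The summed intensity of all 27 muscle genes made up 0.306 to 0.354% of the channel total in loaded bone and 0.322 to 0.532% in its controls, and 0.298 to 0.439% in squeezed bone and 0.301 to 0.375% in its controls. The log2 ratio of these shares differed by -0.33 between LOAD and SHAM (exact 2-sided permutation p = 0.135). Of the defining muscle markers Myl11 carried signal in 12 and Pgam2 in 5 of the 20 channels. Myl11 differed by -1.86 (standard error 0.84) and Pgam2 by -0.915 (standard error 0.38). The part of muscle content in these differences was not tested. In bone of this kind fewer cells of a type and less RNA per cell cannot be told apart.

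With the arrays numbered 4 left out, the muscle list had 9 of its 14 members lower and a median of -0.17, Ckm differed by -1.42 and Capn3 by -0.47. With their controls exchanged, 8 of 14 were lower, with a median of -0.013, Ckm differed by -0.52 (standard error 0.78) and Capn3 by -0.025 (standard error 0.40). Tnni2 was then at -0.16 and Eno3 at -0.33. In that pairing the Ckm ratio was 0.15 for LOAD 4 and -2.94 for SHAM 4, in place of -2.56 and -0.23.

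The spots of Maoa and Fgb, which are not muscle genes, varied across the arrays much as Ckm did. Maoa, the monoamine oxidase of the outer mitochondrial membrane, had ratios of 0.049, -0.69, -3.44, -3.52 and -2.33 on LOAD 1 to 5, and of -1.93, 2.84, 0.66, -0.17 and -0.24 on SHAM 1 to 5, and the difference of -2.22 (standard error 0.88, 95% interval -4.14 to -0.29) was the largest in size among the bright genes. Fgb, the beta chain of fibrinogen, had ratios of -0.077, -0.44, -1.89, -2.24 and -1.29 on LOAD 1 to 5, and of -0.89, 1.60, 0.18, -0.049 and -0.23 on SHAM 1 to 5, with a difference of -1.31 (standard error 0.49, 95% interval -2.37 to -0.24). In both genes, as in Ckm, LOAD 4 was lowest and SHAM 2 highest, and SHAM 1 was the lowest of its group. V01224, an accession without a name, followed the same order, from -3.03 on LOAD 4 to 2.11 on SHAM 2. The exact permutation p was 0.0635 for Maoa, 0.0556 for Fgb and 0.0635 for V01224. With the controls of the arrays numbered 4 exchanged, Maoa differed by -0.60 and Fgb by -0.38. An oligonucleotide can bind another transcript in part, and whether these spots measured the genes they are named for was not tested here.

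Of the 3 genes whose groups did not overlap none had a name. D12771 had ratios of 0.080, 0.19, 0.16, 0.36 and -0.016 on LOAD 1 to 5, and of -0.095, -0.14, -0.064, -0.11 and -0.020 on SHAM 1 to 5. The lowest LOAD value, on LOAD 5, and the highest SHAM value, on SHAM 5, were almost equal, and the difference was 0.24 (standard error 0.097). For AF306457 the difference was 0.20 (standard error 0.096) and for X87885 it was 0.18 (standard error 0.087). These differences were small beside that of Ckm. Of the other accessions without a name, AF143545 differed by 0.27 (standard error 0.11) and M26247 by -0.73 (standard error 0.26), with overlapping groups. With the controls of the arrays numbered 4 exchanged, D12771 differed by 0.086, AF143545 by 0.062 and M26247 by -0.51.

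The medians and counts of the bone gene lists depended on which arrays were used. Of the 4 bright osteocyte genes 3 were higher in LOAD, with a median of 0.17, and after Mepe came the hyaluronan receptor Cd44 at 0.21 (standard error 0.21, 95% interval -0.25 to 0.67) and Phex, the endopeptidase mutated in X-linked hypophosphatemia, at 0.12 (standard error 0.20, 95% interval -0.31 to 0.56). Pdpn, podoplanin of the growing osteocyte processes, differed by -0.21 (standard error 0.25). The osteocyte median was -0.026 without the arrays numbered 4 and -0.19 with their controls exchanged, where Cd44 was at -0.15 and Phex at -0.23. Of 8 osteoblast and matrix genes 4 were higher and 4 lower, with a median of -0.058. All 8 were lower without LOAD 4 (median -0.13) and without both arrays numbered 4 (median -0.25), and 7 of 8 with their controls exchanged (median -0.14). Without LOAD 5, the lowest array of this list at -0.715, 5 were higher and 3 lower, with a median of 0.24.

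Spp1 encodes osteopontin, a matrix protein to which osteoclasts attach. Its ratios were 0.55, -0.81, 0.46, 0.024 and -0.18 on LOAD 1 to 5, and 0.38, 0.61, 0.18, -0.052 and -0.41 on SHAM 1 to 5. The groups overlapped over most of their range, and the difference was -0.13 (standard error 0.26, 95% interval -0.70 to 0.44). Ibsp, bone sialoprotein, which nucleates mineral, differed by 0.14 (standard error 0.38, 95% interval -0.69 to 0.96), with 1.15 on LOAD 2 and -1.26 on LOAD 5. For Sparc, osteonectin, the difference was -0.17 (standard error 0.46), for the parathyroid hormone receptor Pth1r it was -0.26 (standard error 0.19), and for Mgp, an inhibitor of calcification, it was -0.30 (standard error 0.43). In 3 of these 8 matrix genes the 95% interval reached beyond 2-fold.

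As hybridized, lists of early response and mechanical signalling had medians close to 0. Of the 7 bright early response genes 2 were higher and 5 lower, with a median of -0.050. Egr1, a zinc finger factor induced by strain, had ratios of 0.42, -0.065, 0.31, 0.20 and 0.51 on LOAD 1 to 5, and of 0.066, 0.14, 0.27, 0.17 and -0.064 on SHAM 1 to 5. All but LOAD 2 and SHAM 5 were above 0, so that Egr1 was higher in treated than in control bone on 8 of 10 arrays, and the difference was 0.16 (standard error 0.12, 95% interval -0.11 to 0.43). Arc, a synaptic early gene, differed by -0.19 (standard error 0.25) and Id1, an inhibitor of differentiation factors, by -0.051 (standard error 0.13). Of 9 adhesion and mechanosensing genes 4 were higher and 5 lower, with a median of -0.0021, but 7 of 9 were lower without the arrays numbered 4 and 8 of 9, with a median of -0.13, with their controls exchanged. The integrin subunit Itgb1 differed by 0.20 (standard error 0.15, 95% interval -0.13 to 0.53) and the heparan sulfate proteoglycan Sdc4 by -0.16 (standard error 0.13). The 5 bright genes of the prostaglandin and nitric oxide list had a median of 0.019 (-0.13 and 4 of 5 lower in that exchange). Among them Ptgs1, the constitutive cyclooxygenase, was at 0.13 (standard error 0.16).

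All 4 bright genes of TGF-beta and BMP signalling had a lower ratio in LOAD, with a median of -0.14. Smad3, a transducer of TGF-beta, had ratios of 0.023, -0.042, -0.21, -0.0081 and -0.038 on LOAD 1 to 5, and of 0.24, -0.013, 0.20, 0.041 and 0.089 on SHAM 1 to 5. LOAD 1 and LOAD 4 lay above the lowest SHAM value, and the difference was -0.17 (standard error 0.096, 95% interval -0.38 to 0.043), with an exact permutation p = 0.0238 and an adjusted p of 1. Smad4, the common partner of the receptor-regulated Smads, differed by -0.17 (standard error 0.13), the ligand Bmp4 by -0.12 (standard error 0.19) and Smad1 by -0.049 (standard error 0.17). With the dyes of LOAD 2 exchanged 2 of 4 were lower, and without normalization 1 of 4. Without the arrays numbered 4 it was 3 of 4, with a median of -0.19, and with their controls exchanged 4 of 4, with a median of -0.33.

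The bright transcripts of vessel cells had a median ratio above 0 on all 5 LOAD arrays and below 0 on all 5 SHAM arrays. The array medians of the 4 bright genes of endothelium and smooth muscle were 0.18, 0.055, 0.079, 0.11 and 0.039 in LOAD, and -0.013, -0.019, -0.0022, -0.12 and -0.087 in SHAM. Selp, P-selectin, differed by 0.15 (standard error 0.11), the adhesion receptor Vcam1 by 0.14 (standard error 0.12), the pericyte gene Rgs5 by 0.23 (standard error 0.21) and Cald1, caldesmon, by -0.016 (standard error 0.10). None of the 4 had an unadjusted p under 0.05. Their median difference was 0.15, and it was -0.098 with the controls of the arrays numbered 4 exchanged and 0.014 after median centring. The 4 dimmer genes of this list had a median difference of -0.12. The log2 ratio of the summed intensity of all 8 genes differed by 0.0071.

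**Figure D4:**
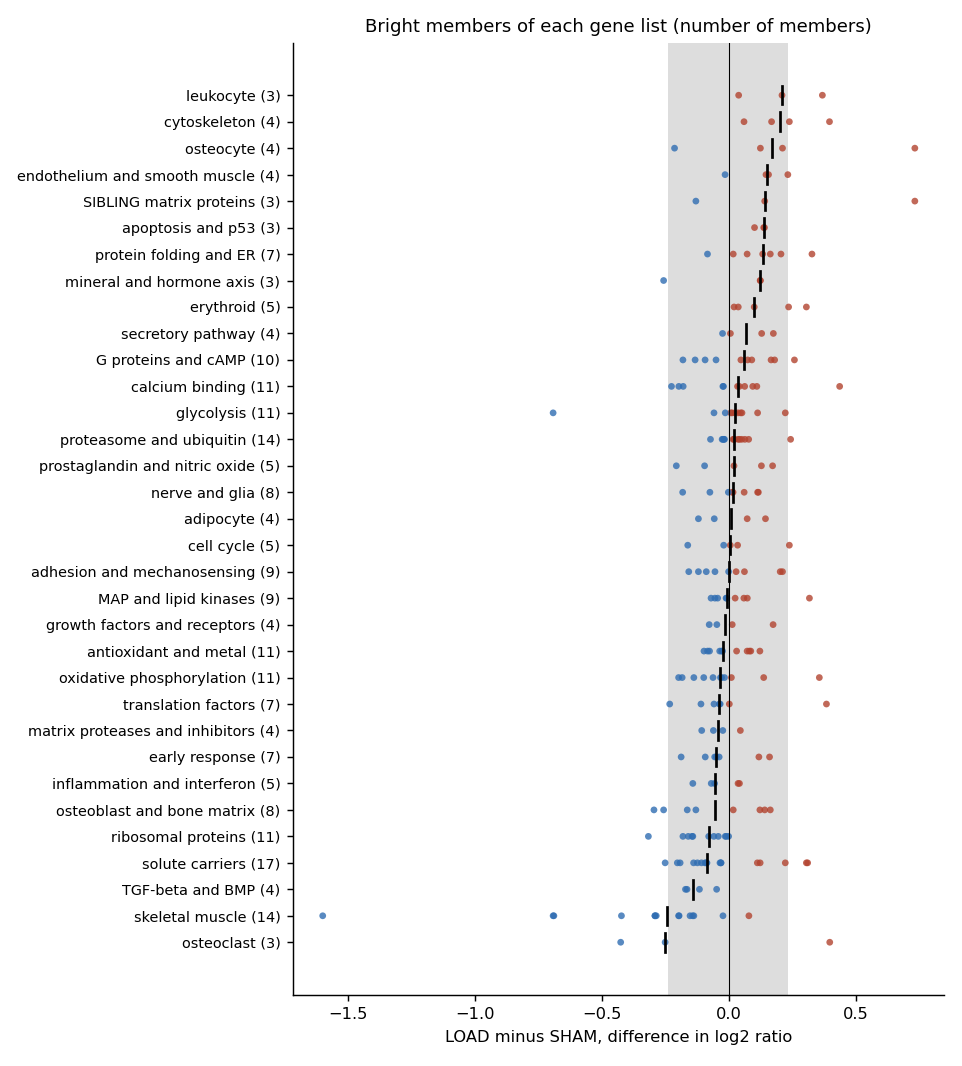
Difference in log2 ratio, LOAD minus SHAM, of the bright members of the 33 gene lists with at least 3 of them; red points are higher and blue points lower in LOAD, black bars are list medians and the grey band spans the 5% to 95% range of all bright genes. Skeletal muscle, with a median of -0.24, held the member farthest from the band, Ckm at -1.60.

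All 11 bright ribosomal protein genes had a lower ratio in LOAD, with a median of -0.081 and none at an unadjusted p under 0.05. Rps29 differed by -0.18 (standard error 0.12), Rpl39 by -0.14 (standard error 0.12) and Rps26 by -0.15 (standard error 0.13). The array medians were -0.020, -0.082, 0.040, -0.23 and -0.017 in LOAD, and -0.072, 0.16, 0.036, 0.049 and -0.065 in SHAM. LOAD 4 was lowest and SHAM 2 highest, as for muscle. The count was 9 of 11 without normalization, 10 after scaling to a common spread, 9 without the arrays numbered 4 and 6 of 11 with their controls exchanged. The 14 proteasome and ubiquitin genes were divided, 9 higher and 5 lower with a median of 0.020 (after median centring 13 lower, with a median of -0.093), and 13 of them had an interval within 2-fold.

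Genes of energy metabolism were divided in direction. Of 11 glycolysis genes 8 were higher and 3 lower, with a median of 0.023 that became -0.064 after median centring, and 10 of 11 were lower without the arrays numbered 4 (median -0.029). The lowest was the muscle enzyme Eno3. Ldha, lactate dehydrogenase A, differed by 0.035 (standard error 0.11) and Gapdh, a housekeeping gene, by 0.11 (standard error 0.21, 95% interval -0.34 to 0.57). Of 11 genes of oxidative phosphorylation 3 were higher and 8 lower, with a median of -0.034 that became 0.068 without normalization and 0.11, with 4 lower, when the controls of the arrays numbered 4 were exchanged. The lowest of them, Cox8b, differed by -0.20 (standard error 0.14), and Cycs, cytochrome c, by 0.14 (standard error 0.13). Cox8b is also the cytochrome oxidase subunit of muscle and is in both lists. Of 7 genes of protein folding in the endoplasmic reticulum and cytosol 6 were higher, with a median of 0.13 (0.0087 after median centring, -0.0011 without LOAD 4, -0.011 with the controls of the arrays numbered 4 exchanged), and among them the disulfide isomerase Pdia3 differed by 0.33 (standard error 0.40) and cyclophilin A, Ppia, by 0.20 (standard error 0.14).

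Blood cell transcripts varied widely between arrays. All 5 bright erythroid genes and all 3 bright leukocyte genes had a higher ratio in LOAD, with medians of 0.099 and 0.21 and none at an unadjusted p under 0.05. The erythroid median turned to -0.039 after median centring and to -0.024 after scaling, and without the arrays numbered 4 it was -0.047 with 4 of 5 lower, while the leukocyte median became -0.082 when the LOAD 2 dyes were exchanged and -0.017 with the controls of the arrays numbered 4 exchanged. Slc4a1, the band 3 protein of red cells, had ratios of 0.055, 1.07, -1.02, 1.61 and -0.71 on LOAD 1 to 5, and of 0.90, -2.30, 0.074, -1.61 and 2.43 on SHAM 1 to 5. Its range of over 2 on the log2 scale in both groups left a difference of 0.30 (standard error 0.82). For Lyz2, lysozyme of macrophages and granulocytes, the ratios were 0.14, 1.70, 0.33, 0.82 and -1.32 on LOAD 1 to 5, and 0.25, -0.47, -0.16, -0.21 and 0.44 on SHAM 1 to 5, with a difference of 0.37 (standard error 0.44, 95% interval -0.59 to 1.32). Cd53, a leukocyte tetraspanin, was above 0 on all LOAD arrays, at 0.074, 0.43, 0.17, 0.28 and 0.51 on LOAD 1 to 5, and at 0.22, 0.076, -0.050, 0.30 and -0.13 on SHAM 1 to 5, and differed by 0.21 (standard error 0.12). The array medians of the erythroid list ran from -0.71 on LOAD 5 to 0.48 on LOAD 2 in the loaded group and from -0.63 on SHAM 2 to 0.26 on SHAM 5 in the squeezed group. Summed over each list, the log2 ratio of the intensity share differed by 0.037 for erythroid genes (exact permutation p = 0.865) and by 0.29 for leukocyte genes (exact permutation p = 0.46).

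**Figure D5:**
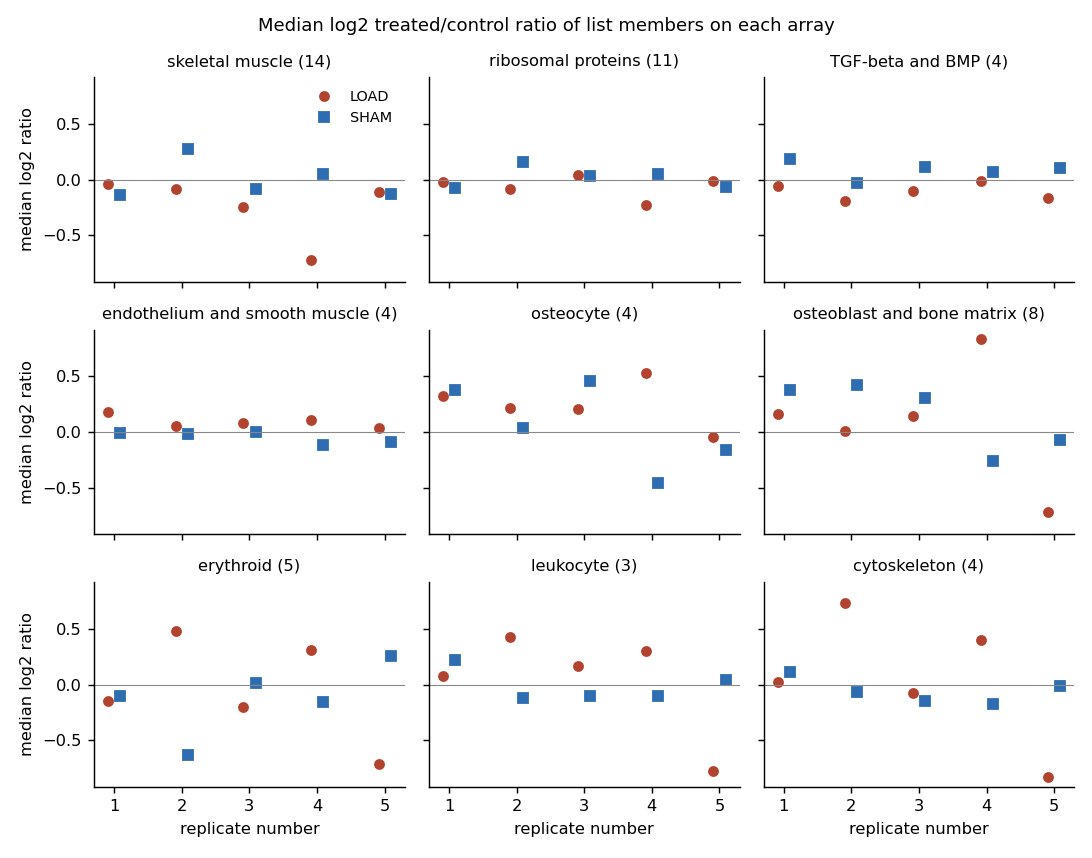
Median log2 treated/control ratio of the bright members of 9 gene lists (number of members in brackets) on each array, with LOAD as circles and SHAM as squares; a shared replicate number does not pair the rats. LOAD 4 was lowest for muscle at -0.73. LOAD 5 was lowest for the osteoblast and bone matrix, erythroid, leukocyte and cytoskeleton lists.

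LOAD 5 weighed most on the number of calls. Without it 110 bright genes (4.62%), of which 73 were higher and 37 lower in LOAD, reached p under 0.05 before adjustment, against 3.8% of all genes tested in that fit. The groups then did not overlap in 25 bright genes that were higher and 6 that were lower, beside 1.16% of all genes with 9 values. No gene passed in limma (lowest adjusted p = 0.855). Leaving LOAD 5 out also leaves the dyes unevenly divided between the groups, and the part of dye in these calls was not tested. Of the 110 genes 33 had a name, and 14 were also under 0.05 with LOAD 5. Cfl1, Npm1, Stmn1 and Ibsp were among the 110, and LOAD 5 was the lowest LOAD array of each. Leaving LOAD 5 out therefore had to raise the differences of these genes. Cfl1, cofilin, which severs actin filaments, had ratios of -0.0030, 1.12, -0.18, 1.51 and -1.82 on LOAD 1 to 5, and of 0.090, -0.96, -0.14, -0.64 and 0.30 on SHAM 1 to 5, and its difference moved from 0.39 to 0.88 (standard error 0.37). Npm1, nucleophosmin of the nucleolus, at -0.84 on LOAD 5 and 0.82 on LOAD 4, moved from 0.38 to 0.64. Stmn1, stathmin, which destabilizes microtubules, at -0.93 on LOAD 5, moved from 0.24 to 0.50. Ibsp moved from 0.14 to 0.53 and Mepe from 0.73 to 0.86, while Ckm was at -1.46 without LOAD 5. LOAD 2, with the treated bone in the same dye, had the opposite sign to LOAD 5 in Cfl1, Npm1, Stmn1, Ibsp and Lyz2. The sign was the same on both arrays in Mepe and Ckm.

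The ratios differed in spread between arrays. The standard deviation over the bright genes was 0.124, 0.435, 0.222, 0.435 and 0.458 on LOAD 1 to 5, and 0.196, 0.323, 0.195, 0.270 and 0.241 on SHAM 1 to 5. LOAD 2, LOAD 4 and LOAD 5 had the widest ratios, and LOAD 1 the narrowest. The mean was 0.335 ± 0.152 in LOAD and 0.245 ± 0.0539 in SHAM (SD, n = 5), a difference of 0.090 (exact 2-sided permutation p = 0.246). Bright genes beyond 2-fold numbered 2, 89, 9, 77 and 118 on LOAD 1 to 5 and 2, 35, 8, 20 and 15 on SHAM 1 to 5 (exact p = 0.143). Loaded pairs were not shown to differ more widely from their controls than squeezed pairs did.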

How the data were processed

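Total RNA of the tibial shaft was hybridized to 10 two-colour arrays of 4803 oligonucleotides, each right tibia against the left tibia of the same rat. The deposited scanner files, made by the authors with BlueFuse, hold a fluorescence intensity (amplitude) per channel. In the files as deposited by the authors, the confidence of each spot and the probability that a channel carries signal are given as a fraction, estimated by the same program. The deposited value table holds uncentred log2 ratios of treated over control, equal within rounding to the scanner intensities, and was used as an alternative. An oligonucleotide can bind another gene in part, according to the study's methods.

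Spots with a confidence under 0.11 were left out, as was 1 row that names no gene, and a gene was tested where at least 9 of its 10 ratios were present. Log2 ratios were normalized by loess within each array (span 0.3), and the LOAD and SHAM means were compared with limma 3.58.1 in R 4.3.3 over 4707 genes with Benjamini-Hochberg adjustment; the fit was tested on simulated data. Exact permutation tests used all 252 splits of the 10 arrays, and their p-values were adjusted over 4472 genes with 10 values rather than over the named genes as planned. The number of arrays limits the precision. Accessions were named through RefSeq (1177) or the study's gene table (7), and 3619 had no name. Named were the genes at an unadjusted p under 0.05, up to 3 genes of each list with the lowest p, and the bright genes the study names; further list members were added after their values were seen. Members and lists were chosen with earlier results of these data known. Alternatives were other normalizations, filters, dye and batch terms, exchanged labels and each array left out in turn.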

Additional observations from a re-analysis of the deposited data

Results flagged for a closer look

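Single arrays that stood apart from the other 4 of their group were looked for in 59 measures. In these 118 groups of 5, 8 were found. Chance flags about 1 in 20 groups, but D88586, D50568 and Cst8 were among the measures after their values had been seen. The count therefore cannot be set against that rate. D88586 had a log2 ratio of 2.95 on LOAD 4, against -0.52 to 0.21 on the other LOAD arrays, and of -2.23 on SHAM 4, against -0.23 to -0.11. For D50568 the ratio on SHAM 4 was -1.13, while the other SHAM arrays lay between -0.35 and -0.082. AF306457 was at -0.178 on SHAM 1, below the range of -0.044 to 0.0046 of its group. On LOAD 2 the median ratio of the inflammation and interferon list was -0.388 (others -0.033 to 0.087) and that of the antioxidant and metal list was 0.266 (others -0.12 to -0.015). The summed muscle intensity had a log2 ratio of 0.441 on SHAM 2, above the range of -0.15 to -0.015, and the summed adipocyte intensity one of -0.138 on LOAD 3, below the range of 0.0042 to 0.037.

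The 4 bright endothelium and smooth muscle genes had a median ratio above 0 on every LOAD array and below 0 on every SHAM array. The median difference of these 4 was 0.15, and that of the 4 dimmer genes of the list was -0.12. The difference between the groups was not tested for this list, and the log2 ratio of the summed intensity of all 8 genes of the list differed by 0.0071.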

How the results depend on the processing

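The count of genes past a false discovery rate of 20% was 0 in 30 of 32 alternatives and 2 without normalization and with the deposited log2 ratios. Bright genes at an unadjusted p under 0.05 in limma numbered 23, but 5 without normalization and 5 with the deposited ratios, 12 after scaling to a common spread, 42 when 10 of 20 channels sufficed, 65 with the dyes of LOAD 2 exchanged and 99 with a dye term as well, and 8 (without SHAM 2) to 110 (without LOAD 5) with 1 array left out, among them 9 without LOAD 4, 35 without LOAD 1 and 39 without LOAD 2. The 3 non-overlapping genes became 0 without normalization and 0 with the deposited ratios, 1 with a loess span of 0.7, 5 with SHAM 1 counted as LOAD, 7 with the dyes of LOAD 2 exchanged, 17 without both arrays numbered 4, and 5 to 31 with 1 array left out. Intervals within 2-fold fell from 2261 to 317 genes without normalization and to 317 with the deposited ratios. The difference in spread stayed at 0.014 to 0.14 with exact permutation p from 0.0556 to 0.571. With the controls of the arrays numbered 4 exchanged, Cst8 turned to -0.14. Over all genes tested, 70 had an unadjusted p under 0.05 in limma as reported, and 9 to 179 in the alternatives. The wider channel rule takes in more bright genes, and fewer arrays leave groups that overlap less easily. The counts of bright genes in these alternatives are thus not shares that can be set against 23 and 3. The cause of these changes was not tested.

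The deviations of the bright genes from their group means did not correlate above 0 between the LOAD and SHAM arrays of one replicate number (r from -0.58 to -0.15), so the numbers were not taken to pair them. With the replicate number as a block, 23 bright genes had an unadjusted p under 0.05 and 0 genes passed the false discovery rate. In that fit 2222 intervals lay within 2-fold. With the image batch as a block, 28 bright genes had an unadjusted p under 0.05. All 8 named genes kept their direction in all 32 alternatives. They were selected by p on these same arrays, so a kept direction was likely beforehand and is not independent evidence. An unadjusted p under 0.05 was lost for Ckm in 2 of them, Fgb in 7, Maoa in 11, Mepe, Capn3 and Slc4a2 in 14 each, Cyp1b1 in 15 and Ralgapa1 in 17. With 5 arrays a group, a median interval half-width of 0.312 limits what can be seen, and signal in both channels was found for 52.4 to 81.6% of spots.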

Other observations

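The 7 further gene lists described here had medians between -0.087 and 0.059 over their bright members. Of 8 nerve and glia genes 5 were higher in LOAD, with a median of 0.013, and the synaptic vesicle protein Syp differed by -0.18 (standard error 0.22). Of 4 adipocyte genes 2 were higher, with Pparg, the master regulator of fat cells, at 0.14 (standard error 0.14) and Ucp1, the uncoupling protein of brown fat, at -0.12 (standard error 0.12). The 10 genes of G protein and cAMP signalling had a median of 0.059, with 6 higher (-0.056 without the arrays numbered 4 and -0.084 with their controls exchanged), and the receptor kinase Grk2 differed by -0.18 (standard error 0.15). Of 9 MAP and lipid kinase genes 4 were higher, with a median of -0.0093, and Pik3r1, the regulatory subunit of PI3 kinase, differed by 0.32 (standard error 0.32).

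Of 11 antioxidant and metal genes 5 were higher and 6 lower, with a median of -0.026, and the superoxide dismutase Sod2 differed by 0.12 (standard error 0.19). The 17 solute carriers had a median of -0.087, with 12 lower, which became 0.12 and 5 lower without normalization and 0.060 and 7 lower without the arrays numbered 4. Slc4a2 was the one member at an unadjusted p under 0.05 and Slc25a1, the mitochondrial citrate carrier, differed by 0.31 (standard error 0.27). Of 11 calcium-binding genes 6 were higher, with a median of 0.033 that became -0.031 without the arrays numbered 4, and the annexin Anxa3 differed by 0.43 (standard error 0.33).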
